A study of Homo sapiens with 101 samples.

Results

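The 8 genes described here, of 19774 with a probe set of their own on the array, belong to cholesterol synthesis. ACAT2 and HMGCS1 act at its start, IDI1 interconverts its isoprenoid building blocks, SQLE oxidises squalene, EBP, SC5D and DHCR7 finish the ring, and INSIG1 is its feedback regulator. All probe sets that the array's annotation assigns to 1 of these genes alone were taken, which gave 21 of 54715 probe sets on the array. Of these, 19 reached a mean log2 value of 4 or more in at least 1 group and were tested among 21612 probe sets. The other 2, 231320_PM_at of EBP and 215064_PM_at of SC5D, did not. Each gene is described by its leading probe set, the one with the highest mean over all arrays, and further probe sets are named where they are used. The genes were chosen by pathway, with earlier results of these data known, so counts of them beside all tested probe sets are descriptions only. In RefSeq's annotation of GRCh38.p14, ACAT2 spans 159762045 to 159779112 on chromosome 6, HMGCS1 43287470 to 43313412 on chromosome 5 and IDI1 1039152 to 1056704 on chromosome 10. SQLE spans 124998505 to 125022283 on chromosome 8, EBP 48521808 to 48528716 on chromosome X and INSIG1 155297878 to 155310235 on chromosome 7. SC5D (121292771 to 121313410) and DHCR7 (71427287 to 71449043) lie on chromosome 11.

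RNA from HT1080 cells was measured on 101 arrays in 17 groups. HT1080 is a human fibrosarcoma line, so all samples derive from a single tumour's cells. Per the series text, each compound was given at 1 dose, picked for a 1.5-fold rise in total p53. The MMC group had mitomycin C, a DNA crosslinker, at 0.1 µM (n = 5). NCS was neocarzinostatin, which breaks DNA strands, at 10 ng/ml (n = 6). Hydrogen peroxide (H2O2) was given at 100 µM (n = 5), the alkylating agent ethylnitrosourea (ENU) at 2 mM (n = 6) and the redox-active phenol tert-butylhydroquinone (tBHQ) at 200 µM (n = 6). GAD, at 2 mM (n = 6), and BRO, at 600 µM (n = 6), are codes that the labels do not spell out. Methyl methanesulfonate (MMS), an alkylating agent, was given at 200 µM, curcumin (CUR) at 10 µM, the topoisomerase inhibitor etoposide (ETP) at 0.3 µM and the flavonoid quercetin (QUE) at 30 µM, each with n = 6. MMC, NCS, H2O2, ENU, GAD and tBHQ were set against DMSO_pooled (n = 6), so these 6 comparisons share their control samples. That tie was inferred from the array quantiles. What went into the pool is not stated. BRO, CUR, ETP and QUE had their own DMSO controls and MMS its control MMS_CTL (n = 6 each). Stocks were made up in DMSO. The labels give no exposure time and do not say that replicates were separate cultures, so the p-values may measure technical spread.

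Cells make cholesterol from acetyl-CoA through the mevalonate pathway. When membrane sterols are low, the transcription factor SREBP2 (gene SREBF2) is carried from the endoplasmic reticulum to the Golgi by SCAP, cut there, and its free part switches on most enzymes of the pathway. When sterols are high, INSIG1 and INSIG2 hold SCAP back in the endoplasmic reticulum. INSIG1 is itself an SREBP target, and NF-Y and Sp1 are common partners of SREBP at such promoters.

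The promoters of HMGCS1, INSIG1 and EBP are shown because these genes stand for the start, the feedback arm and the end of the pathway. The sequences are the 250 bases before the gene start in RefSeq's annotation of GRCh38.p14, 5′ to 3′ on the gene's strand. They lie at chr5:43313413-43313662 (HMGCS1, minus strand), chr7:155297628-155297877 (INSIG1, plus strand) and chrX:48521558-48521807 (EBP, plus strand). Capitals mark the NF-Y box CCAAT read on the opposite strand, ATTGG.
HMGCS1: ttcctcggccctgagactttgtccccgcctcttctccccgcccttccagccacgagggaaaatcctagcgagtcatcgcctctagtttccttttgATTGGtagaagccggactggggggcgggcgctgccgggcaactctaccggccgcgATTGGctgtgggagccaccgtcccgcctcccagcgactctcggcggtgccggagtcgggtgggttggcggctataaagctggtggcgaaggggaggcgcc
INSIG1: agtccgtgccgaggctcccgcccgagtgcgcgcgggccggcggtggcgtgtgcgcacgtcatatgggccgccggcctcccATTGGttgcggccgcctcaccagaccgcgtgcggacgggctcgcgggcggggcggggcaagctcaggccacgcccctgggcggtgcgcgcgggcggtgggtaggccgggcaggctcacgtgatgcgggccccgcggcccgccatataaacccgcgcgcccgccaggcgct
EBP: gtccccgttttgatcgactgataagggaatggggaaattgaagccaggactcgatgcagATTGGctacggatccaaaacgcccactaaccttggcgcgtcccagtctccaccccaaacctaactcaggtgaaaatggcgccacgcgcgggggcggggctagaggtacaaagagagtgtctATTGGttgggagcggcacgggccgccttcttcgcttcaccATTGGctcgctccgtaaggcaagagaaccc
The printed windows hold 2 such boxes for HMGCS1, 1 for INSIG1 and 3 for EBP. Only promoter windows with the full length of 300 bases were used, and 6 of the 8 genes had one (HMGCS1, INSIG1, IDI1, DHCR7, SC5D and EBP). On either strand, CCAAT was found in the first listed window of 5 of these 6 genes, all but IDI1. It was found in 32% of 35116 windows of that length, where a gene can have several. In later listed windows CCAAT was found for IDI1 and SC5D but not for HMGCS1 and DHCR7. The Sp1 box GGGCGG was found in 6 of 6, against 42.6%. The spelling TCACNCCAC of the sterol regulatory element was found in 0 of 6, against 0.883%. These matches describe letters only, and no binding was measured.

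The deposited log2 values have array medians that differ between sets (from 2.89 to 2.92 for BRO and its control, and from 3.48 to 3.54 for ETP and its control), so levels were compared only with the control of the same set. Of the cell type markers, 7 of 7 mesenchymal markers had a mean of 4 or more in every group, and 0 of 5 epithelial, 0 of 3 haematopoietic and 0 of 4 endothelial markers reached it in any. The p53 target CDKN1A was called higher in 9 of 11 compounds, all but tBHQ and CUR. QUE replicate 2 and ETP replicate 2 stood 2.36 and 2.32 times as far from the rest of their group as its median sample, MMS_CTL replicate 3 1.80 times, QUE replicate 3 and tBHQ replicate 1 each 1.67 times, and CUR_DMSO replicate 5 1.61 times. In bulk RNA, fewer cells that express a gene and less RNA of it in each cell cannot be told apart.

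Over the 11 compounds, 5 of the 8 leading probe sets fell in GAD and 3 in QUE, that of IDI1 rose in MMS, and no leading probe set was called in the other 8. A call means that limma gave an adjusted p under 0.05 with at least a 1.5-fold change. GAD lowered the leading probe sets of ACAT2, SQLE, EBP, DHCR7 and INSIG1, and QUE those of ACAT2, EBP and DHCR7. The median log2 fold change of the 8 leading probe sets was -0.72 in GAD, -0.55 in QUE and 0.28 in MMS, against medians over all tested probe sets of 0.05, 0.01 and 0.07. The QUE median was -0.26 without QUE replicate 3 and -0.31 without replicates 2 and 3 together. In the other compounds it lay between -0.41 (ETP) and -0.05 (tBHQ), with NCS at -0.35 and CUR at -0.33, and the ETP median was -0.26 without ETP replicate 2.

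**Figure D1:**
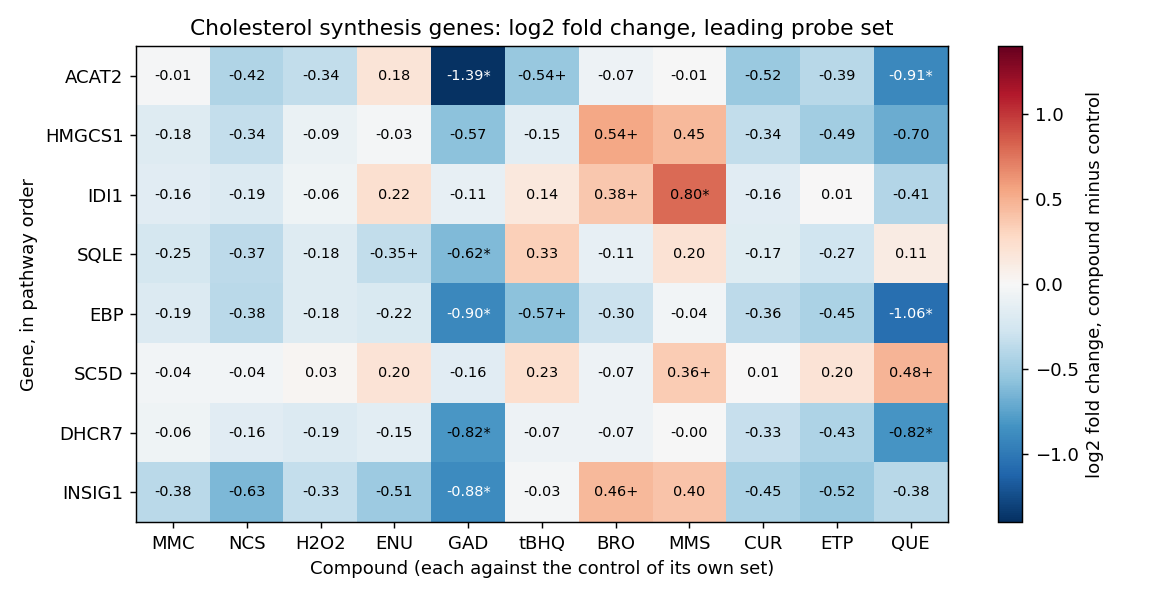
Each cell gives the log2 fold change of a gene's leading probe set (genes down the page in pathway order) in a compound against its control (compounds across). An asterisk marks a call (adjusted p under 0.05 and at least 1.5-fold) and a plus an adjusted p under 0.05 with a smaller change. The GAD column holds 5 calls, the QUE column 3 and the MMS column 1, and the largest fall is ACAT2 in GAD at -1.39.

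GAD gave the broadest fall. It lowered 10 of the 19 tested probe sets and raised 0, where 26.8% of all tested probe sets were called in this comparison and 14.1% were called lower. The 10 covered 6 of the 8 genes. In 8 of the 19, every GAD sample lay below every control, against 16.6% of all tested probe sets.

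ACAT2, the cytosolic thiolase that joins acetyl-CoA units at the first step, had the largest fall. Its log2 signal was 6.58 at the lowest, 7.20 at the median and 7.44 at the highest in GAD, against 8.13, 8.52 and 8.89 in DMSO_pooled. All 6 GAD samples lay below all 6 controls. The mean was 7.13 ± 0.29 in GAD and 8.52 ± 0.28 in DMSO_pooled (SD, n = 6 each), a log2 fold change of -1.39 ± 0.15 (SE, limma, adjusted p = 4.03e-06), which is 38.2% of the control level.

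HMGCS1, the cytosolic HMG-CoA synthase, varied widely among the controls. Its leading probe set had 6.40, 6.65 and 7.47 in GAD (lowest, median, highest), against 6.71, 7.24 and 8.28 in DMSO_pooled, and the groups overlapped. The log2 fold change was -0.57 ± 0.25 (SE) with an adjusted p of 0.0685 in limma, so it was not called, although all 6 pairs of same-numbered samples had the GAD sample lower. It became a call without GAD replicate 1 (-0.72), without DMSO_pooled replicate 3 (-0.69) or without DMSO_pooled replicate 6 (-0.69). With the replicate number as a block, the same change of -0.57 passed the p threshold (limma, adjusted p = 0.0007197). Only the 1.5-fold minimum then kept it from a call. The other probe set, 205822_PM_s_at, fell by 0.82 ± 0.28 (SE, limma, adjusted p = 0.02122).

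IDI1, the isomerase of the isoprenoid units, had 9.09, 9.21 and 9.69 in GAD, against 9.01, 9.39 and 9.80 in DMSO_pooled, ranges that lie nearly on top of each other. Its log2 fold change of -0.11 had a 95% interval of -0.40 to 0.17. SQLE, the epoxidase that oxidises squalene, had 8.0, 8.35 and 8.72 in GAD, against 8.61, 8.94 and 9.41 in DMSO_pooled. Of the 6 GAD samples, 5 lay below every control. Its fall of 0.62 ± 0.14 on the log2 scale (SE, limma, adjusted p = 0.001426) was close to the 1.5-fold minimum, and dropped under it without GAD replicate 6 (-0.55), without DMSO_pooled replicate 1 (-0.53) and as the mean of the gene's probe sets (-0.50).

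The late enzymes split. EBP, the sterol isomerase that moves the ring's double bond, had 7.51, 7.68 and 7.86 in GAD, against 8.28, 8.57 and 9.04 in DMSO_pooled. DHCR7, the reductase of the last step to cholesterol, had 5.54, 5.65 and 5.86 in GAD, against 6.23, 6.47 and 6.75 in DMSO_pooled. For both, all GAD samples lay below all controls, with log2 fold changes of -0.90 ± 0.12 for EBP (adjusted p = 2.032e-05) and -0.82 ± 0.09 for DHCR7 (SE, limma, adjusted p = 6.794e-06). SC5D, the desaturase between them, had 7.92, 8.0 and 8.43 in GAD, against 7.97, 8.18 and 8.54 in DMSO_pooled. These groups overlapped, and its log2 fold change of -0.16 had a 95% interval of -0.40 to 0.08.

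INSIG1, the feedback regulator, had 8.61, 8.91 and 9.36 in GAD, against 9.38, 9.91 and 10.4 in DMSO_pooled. The highest GAD sample lay just below the lowest control. All 3 of its probe sets were called, at -0.88 ± 0.18 (201626_PM_at, the leading one), -0.87 ± 0.16 (201627_PM_s_at) and -1.16 ± 0.14 (201625_PM_s_at), with limma adjusted p-values of 0.0007754, 0.000372 and 8.721e-06.

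**Figure D2:**
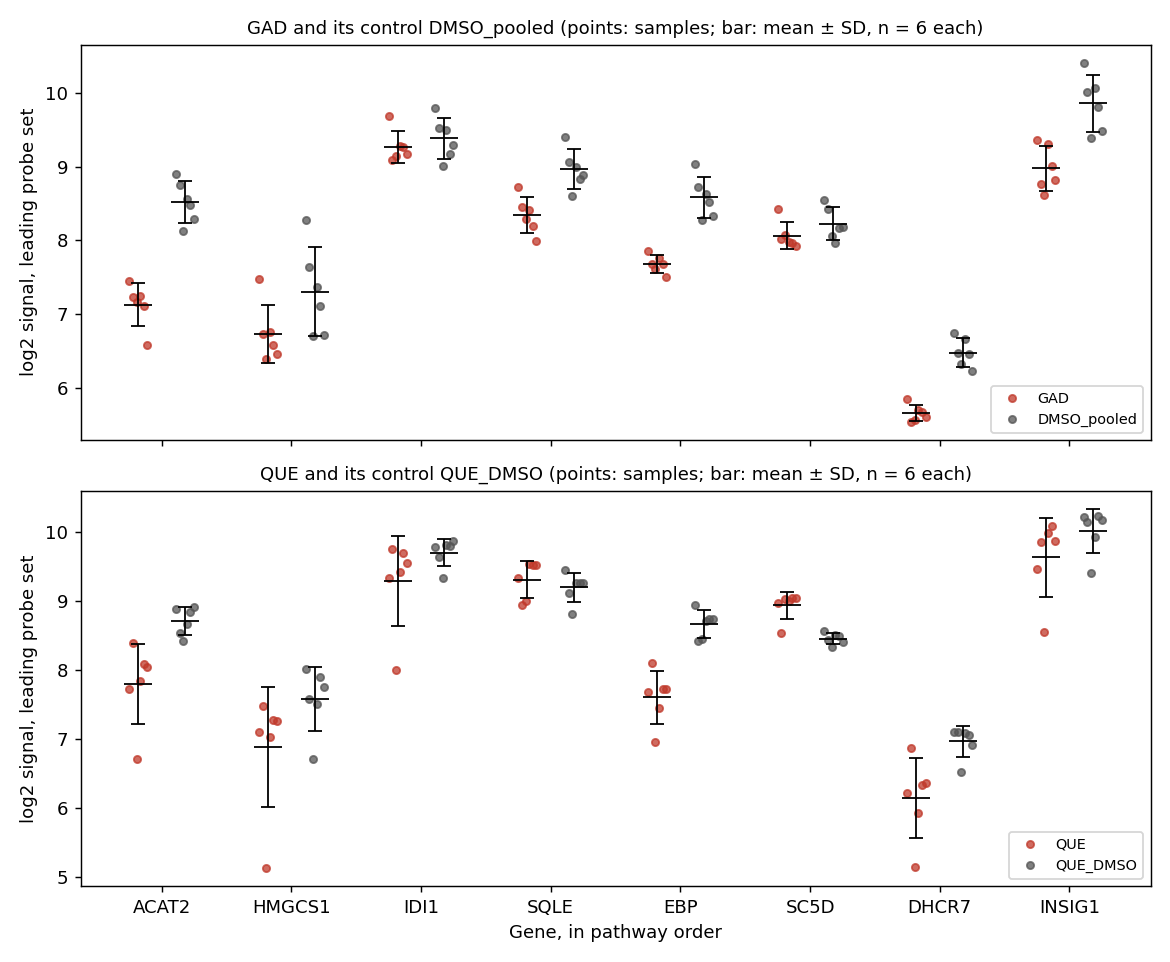
The vertical axis gives the log2 signal of each gene's leading probe set, with points for samples and bars for the mean ± SD (n = 6 each). The upper panel sets GAD against DMSO_pooled, and the lower sets QUE against QUE_DMSO. In GAD the groups do not overlap for ACAT2, EBP, DHCR7 and INSIG1. In QUE they do not overlap for ACAT2 and EBP, and 1 QUE sample lies far below the rest for HMGCS1 (5.13) and IDI1 (8.0).

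QUE lowered ACAT2 at the first step and EBP and DHCR7 near the last. It lowered 6 of the 19 probe sets and raised 0, where 13% of all tested probe sets were called and 5.93% were called lower. The 6 covered 5 genes. In 3 of the 19, every QUE sample lay below every control, against 4.28% of all tested probe sets.

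EBP had 6.95, 7.70 and 8.11 in QUE, against 8.42, 8.72 and 8.94 in QUE_DMSO, with no overlap. Its log2 fold change was -1.06 ± 0.16 (SE, limma, adjusted p = 0.001937), and that of its other tested probe set, 202735_PM_at, was -0.97 ± 0.13 (adjusted p = 0.001278). ACAT2 had 6.71, 7.94 and 8.40 in QUE, against 8.43, 8.75 and 8.91 in QUE_DMSO. All QUE samples again lay below all controls, the highest only just, with a log2 fold change of -0.91 ± 0.23 (SE, limma, adjusted p = 0.01164). DHCR7 had 5.15, 6.28 and 6.87 in QUE, against 6.52, 7.08 and 7.11 in QUE_DMSO, and 5 of 6 QUE samples lay below every control. Its log2 fold change was -0.82 ± 0.23 (SE, limma, adjusted p = 0.01789). The other DHCR7 probe set, 201790_PM_s_at, had -0.56, under 1.5-fold, and was not called. It became a call without QUE replicate 2 (-0.66) or QUE_DMSO replicate 3 (-0.64) or 6 (-0.59).

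Both QUE samples that stood apart were left out to see whether these calls rest on them. Without QUE replicates 2 and 3 together, the log2 fold changes were -1.02 for EBP, -0.78 for ACAT2 and -0.75 for DHCR7, with limma adjusted p-values of 3.426e-05, 0.0002842 and 0.0007922. The count of called probe sets was 6 without both, 7 without replicate 2 and 5 without replicate 3. EBP, ACAT2 and DHCR7 stayed called in each of these 3 cases.

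The leading probe set of HMGCS1 depended on QUE replicate 3. It had 5.13, 7.19 and 7.48 in QUE, against 6.72, 7.67 and 8.01 in QUE_DMSO, with only replicate 3 below every control. The log2 fold change was -0.70 ± 0.35 (SE, limma, adjusted p = 0.1518) with it and -0.35 ± 0.20 without it. With the replicate number as a block the same change of -0.70 was called (limma, adjusted p = 0.0185). Probe set 205822_PM_s_at fell by 1.32 ± 0.33 (SE, limma, adjusted p = 0.01246), and 5 of 6 QUE samples lay below every control. The mean of the gene's probe sets, with all QUE samples, was called at -1.01 (limma, adjusted p = 0.03587).

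INSIG1 had 8.55, 9.86 and 10.1 in QUE, against 9.41, 10.2 and 10.2 in QUE_DMSO, and a log2 fold change of -0.38 ± 0.24 that was not called (limma, adjusted p = 0.2376) and was -0.17 without QUE replicate 3. Of its 3 probe sets only 201625_PM_s_at was called (-0.59 ± 0.17, adjusted p = 0.01971 in limma). That call was lost without QUE replicate 3 (-0.45) and, with values from -0.58 to -0.56, without QUE_DMSO replicate 1, 2, 4 or 5. IDI1 stood at -0.41 (95% interval -0.95 to 0.12), and at -0.15 without QUE replicate 3. SC5D went the other way, with 8.54, 9.01 and 9.04 in QUE, against 8.33, 8.46 and 8.56 in QUE_DMSO. Of the 6 QUE samples, 5 lay above every control, and the log2 fold change of 0.48 ± 0.09 passed the p threshold (SE, limma, adjusted p = 0.004664) but not the 1.5-fold minimum. SQLE, at 8.94, 9.42 and 9.54 in QUE, against 8.81, 9.26 and 9.45 in QUE_DMSO, had a log2 fold change of 0.11 (95% interval -0.18 to 0.40).

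On the leading probe sets, GAD and QUE shared calls for ACAT2, EBP and DHCR7, and the difference between them was tested gene by gene. SQLE and SC5D differed: the log2 fold change in GAD minus that in QUE was -0.73 ± 0.21 for SQLE (adjusted p = 0.002764) and -0.64 ± 0.16 for SC5D (SE, limma fit of all groups, adjusted p = 0.0005053). The other 6 genes did not pass, where 41.8% of all tested probe sets differed between these compounds. For DHCR7 the difference was 0.00 with a 95% interval of -0.40 to 0.40, for EBP 0.16 (-0.32 to 0.64), and for IDI1 0.30 (-0.22 to 0.81). The intervals were wide for ACAT2 (-1.03 to 0.07), INSIG1 (-1.05 to 0.06) and HMGCS1 (-0.66 to 0.91). The 2 compounds were given at different doses and in different sets. This pair, like the pairs of BRO with QUE and of GAD with tBHQ, was picked from 55 after the values were seen.

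**Figure D3:**
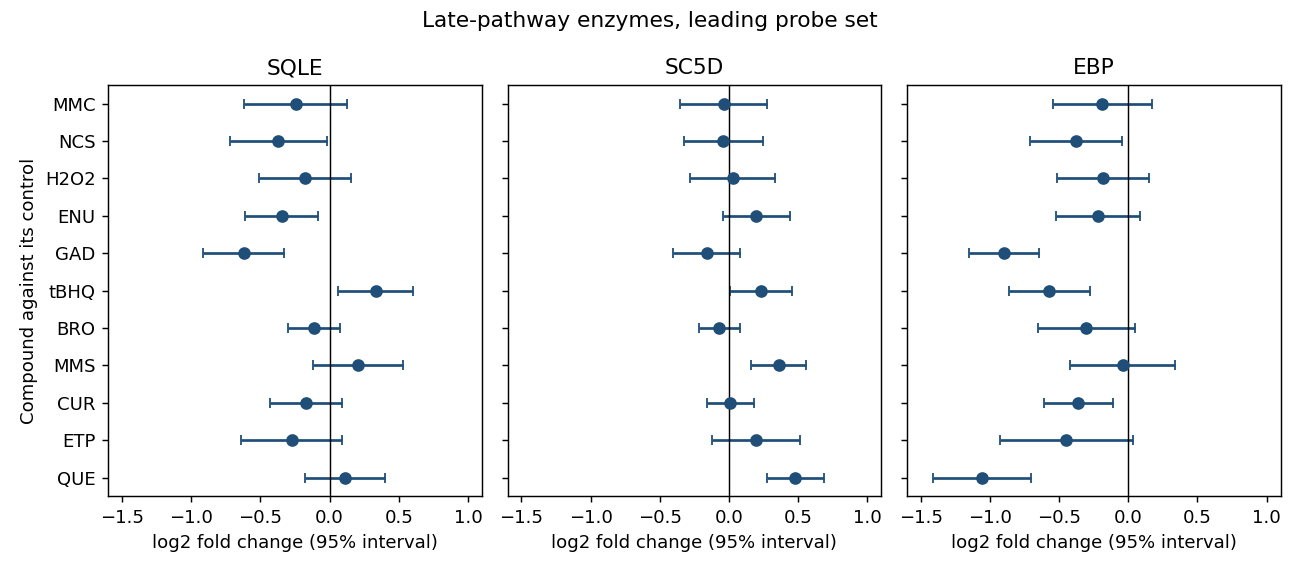
Points give the log2 fold change (horizontal axis) of the leading probe sets of SQLE, SC5D and EBP in each compound against its control (vertical axis), and bars the 95% interval. EBP is below 0 in all 11 compounds and lowest in QUE and GAD. SQLE is lowest in GAD (-0.62), while SC5D is highest in QUE (0.48) and MMS (0.36).

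MMS raised IDI1. The leading probe set, 204615_PM_x_at, had 8.94, 9.08 and 9.54 in MMS, against 8.04, 8.29 and 8.74 in MMS_CTL, with no overlap. The log2 fold change was 0.80 ± 0.14 (SE, limma, adjusted p = 0.001211), or 174% of the control level. Probe set 208881_PM_x_at rose by 0.77 ± 0.14 (adjusted p = 0.001183), also with no overlap. In all, 2 of 19 probe sets were called higher and 1 lower in MMS, where 10.2% of all tested probe sets were called. In 3 of the 19, every MMS sample lay above every control, against 9.12% of all tested probe sets.

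The 1 lower call in MMS was also an IDI1 probe set. Probe set 242065_PM_x_at had 5.41, 5.64 and 6.01 in MMS, against 5.54, 6.61 and 6.70 in MMS_CTL. The groups overlapped through 1 low control, and the log2 fold change was -0.74 ± 0.18 (SE, limma, adjusted p = 0.008796). Probe set 233014_PM_at gave -0.52 ± 0.09, under 1.5-fold, with all 6 MMS samples below all controls, where 6.96% of all tested probe sets showed that. Averaged over its 4 probe sets, IDI1 had a log2 fold change of 0.08 in MMS (limma, adjusted p = 0.6382), so the call rests on which probe sets stand for the gene.

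The 4 IDI1 probe sets fell into 2 pairs over the compounds. Across the 11 compounds, the log2 fold changes of 208881_PM_x_at followed those of the leading probe set (Pearson r = 0.99), while those of 242065_PM_x_at (r = -0.75) and 233014_PM_at (r = -0.59) ran against them. These r describe 11 points, of which 6 share controls. The 2 that followed each other had group means up to 9.77 and 9.72, and the others up to 6.54 and 5.06. Which transcript each probe set reads was not tested. For the other genes with several tested probe sets, r with the leading probe set ran from 0.65 (SQLE, 1557352_PM_at) to 0.99 (INSIG1, 201627_PM_s_at).

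**Figure D4:**
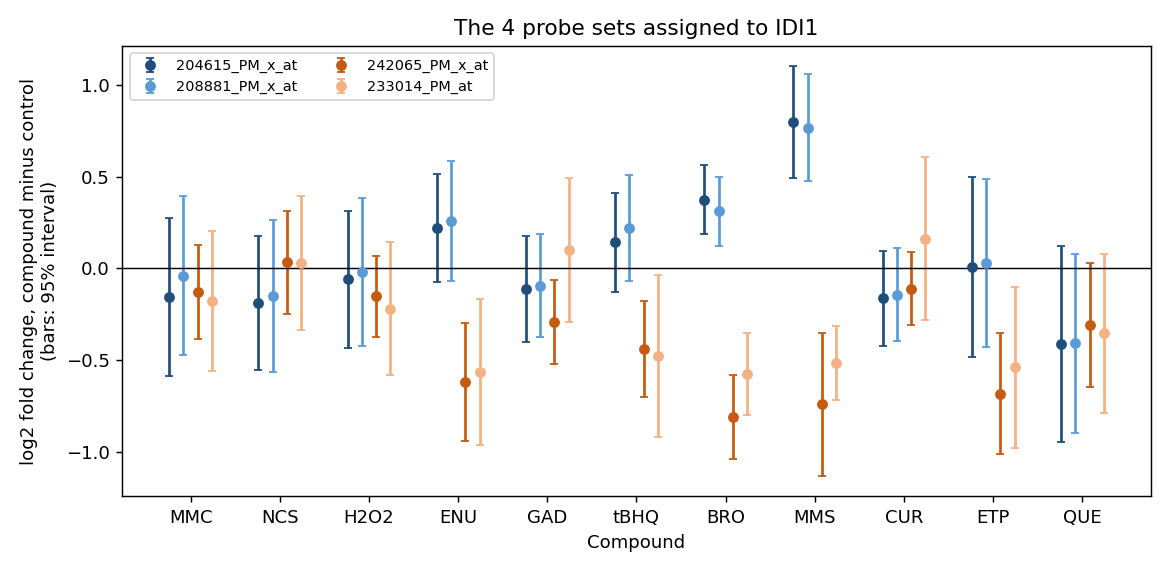
Points give the log2 fold change (vertical axis) of each of the 4 IDI1 probe sets in each compound against its control (horizontal axis), and bars the 95% interval. In MMS and BRO the 2 probe sets in blue lie above 0 and the 2 in orange below it, while in QUE all 4 lie between -0.41 and -0.31.

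The other genes in MMS did not reach a call. SC5D had 7.75, 7.80 and 7.94 in MMS, against 7.13, 7.51 and 7.72 in MMS_CTL, with no overlap, and a log2 fold change of 0.36 ± 0.09 that passed the p threshold only (SE, limma, adjusted p = 0.01205). HMGCS1 had 0.45 (95% interval -0.05 to 0.95) and INSIG1 0.40 (0.01 to 0.79). ACAT2, EBP and DHCR7, whose leading probe sets both GAD and QUE lowered, had -0.01, -0.04 and -0.00.

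HMGCS1, IDI1 and INSIG1 had small positive log2 fold changes in BRO. HMGCS1 had 7.11, 7.28 and 7.56 in BRO, against 6.40, 6.68 and 7.30 in BRO_DMSO, with 3 of 6 BRO samples above every control. Its log2 fold change of 0.54 ± 0.13 (SE, limma, adjusted p = 0.008448) passed the p threshold but not the fold minimum. It became a call without BRO_DMSO replicate 1 (0.65). INSIG1, at 0.46 ± 0.15, and IDI1, at 0.38 ± 0.09, likewise passed only the p threshold (limma, adjusted p of 0.03775 and 0.006837). The 1 call among the 19, where 6.82% of all tested probe sets were called, was the fall of IDI1's 242065_PM_x_at. It had 4.88, 5.26 and 5.44 in BRO, against 5.78, 6.05 and 6.19 in BRO_DMSO, a log2 fold change of -0.81 ± 0.11 (SE, limma, adjusted p = 0.0002059).

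BRO and QUE differed at 7 of the 8 genes in the fit of all groups, where 25.1% of all tested probe sets differed. The log2 fold change in BRO minus that in QUE was 1.24 ± 0.40 for HMGCS1 (adjusted p = 0.01452), 0.84 ± 0.28 for ACAT2 (0.01795), 0.84 ± 0.28 for INSIG1 (0.01983) and -0.55 ± 0.16 for SC5D (SE, limma, 0.005744). SQLE was the exception at -0.22 (95% interval -0.64 to 0.19). QUE replicate 3 is part of these differences, which were not worked out without it. In QUE alone, leaving it out took HMGCS1 from -0.70 to -0.35, INSIG1 from -0.38 to -0.17 and ACAT2 from -0.91 to -0.69. SC5D went from 0.48 to 0.46.

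In tBHQ limma called 0 of 19 probe sets, where 9.84% of all tested probe sets were called, and 9 of the 19 had an unadjusted p under 0.05 (6 lower, 3 higher), against 39.7% of all tested probe sets. ACAT2 had 7.74, 7.97 and 8.19 in tBHQ, against 8.13, 8.52 and 8.89 in DMSO_pooled, and EBP had 7.72, 7.96 and 8.32 in tBHQ, against 8.28, 8.57 and 9.04 in DMSO_pooled. In each, 5 of 6 tBHQ samples lay below every control. The log2 fold changes of -0.54 ± 0.12 for ACAT2 and -0.57 ± 0.14 for EBP (SE, limma, adjusted p of 0.005691 and 0.006547) fell short of 1.5-fold. Without DMSO_pooled replicate 3 both were called (-0.61 and -0.63). Blocking on the replicate number gave 1 call, 205822_PM_s_at of HMGCS1 (-0.67). SQLE stood at 0.33 (95% interval 0.06 to 0.60) and was not called. The log2 fold change in GAD minus that in tBHQ was -0.95 ± 0.15 for SQLE (adjusted p = 3.857e-08), -0.75 ± 0.14 for DHCR7 (SE, limma, 5.321e-06) and -0.33 for EBP, which did not pass (95% interval -0.67 to 0.01). Between these compounds 54.9% of all tested probe sets differed.

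Among the DNA-damaging agents of the DMSO_pooled set, INSIG1 had the lowest log2 fold change of the 8 genes in MMC, NCS and ENU. In NCS it had 8.68, 9.20 and 9.88, against 9.38, 9.91 and 10.4 in DMSO_pooled, and 5 of 6 NCS samples lay below every control. The log2 fold change of -0.63 ± 0.20 was not called (SE, limma, adjusted p = 0.08208). It was called with the replicate number as a block (adjusted p = 0.0008552) and without NCS replicate 1 (-0.76, adjusted p = 0.02007). The 1 call of 19 in NCS, where 2.04% of all tested probe sets were called, was SQLE's 213577_PM_at (-0.59 ± 0.13, adjusted p = 0.02197 in limma), and with the block 3 probe sets were called, this one and 2 of INSIG1.

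In ENU, INSIG1 stood at -0.51 ± 0.18 (SE, limma, adjusted p = 0.05227), which became a call without ENU replicate 6 (-0.61, adjusted p = 0.02303) or DMSO_pooled replicate 3 (-0.60, adjusted p = 0.02694), and SQLE at -0.35 ± 0.12 (adjusted p = 0.04694, under 1.5-fold). The 1 call of 19, against 10.3% of all tested probe sets, was IDI1's 242065_PM_x_at at -0.62 ± 0.15 (limma, adjusted p = 0.007152), while IDI1's leading probe set stood at 0.22. That call was lost without ENU replicate 6 (-0.49) or DMSO_pooled replicate 4 (-0.55). Limma called 0 of 19 in MMC (0.0972% of all tested probe sets) and 0 of 19 in H2O2 (0.657%), with 1 and 2 of the 19 lower at an unadjusted p under 0.05, which 6.87% of all tested probe sets passed in MMC and 14.2% in H2O2. The INSIG1 samples had 10.1, 9.65, 9.02, 9.23 and 9.40 in MMC and 9.86, 9.45, 9.61, 9.44 and 9.28 in H2O2, against 9.38 to 10.4 in DMSO_pooled. Both groups overlapped the controls, and the log2 fold changes were -0.38 (95% interval -0.84 to 0.09) in MMC and -0.33 (-0.71 to 0.05) in H2O2.

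In CUR limma called 0 of 19, where 1.8% of all tested probe sets were called. Of the 19, 7 were lower and 0 higher at an unadjusted p under 0.05, which 21.4% of all tested probe sets passed. ACAT2 had the lowest value, with 7.35, 7.49 and 8.05 in CUR, against 7.49, 8.21 and 8.39 in CUR_DMSO. The groups overlapped through the lowest control, and the log2 fold change of -0.52 ± 0.16 (limma, adjusted p = 0.09023) became a call without that sample, CUR_DMSO replicate 2 (-0.65, adjusted p = 0.02928). With the replicate number as a block, the adjusted p of ACAT2 was 0.01429 in limma, but its change stayed under 1.5-fold. In ETP 1 of 19 was called, against 2.19% of all tested probe sets, again IDI1's 242065_PM_x_at (-0.69 ± 0.15, adjusted p = 0.02728 in limma), and 2 without ETP replicate 2, the sample that stood apart. Without that sample ACAT2 had -0.17 in place of -0.39, EBP -0.24 in place of -0.45 and DHCR7 -0.28 in place of -0.43, and INSIG1 kept -0.50 beside -0.52.

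Across the compounds, EBP and DHCR7 had negative log2 fold changes in 11 of 11, ACAT2 in 10, HMGCS1 and INSIG1 in 9, SQLE in 8, IDI1 in 6 and SC5D in 4. Since 6 compounds share their controls, these are not independent counts. Ordered from the lowest to the highest log2 fold change, ACAT2 ran from GAD (-1.39) through QUE, tBHQ and CUR to ENU (0.18), EBP from QUE (-1.06) through GAD to MMS (-0.04), and SC5D from GAD (-0.16) to QUE (0.48). The neighbours were set by sorting these same values, so a test between them could hardly find a difference. None of the 80 pairs of neighbours in these 8 orders differed in limma (lowest adjusted p = 0.09344, for EBP). The share of all tested probe sets that differed was found only for GAD with QUE (41.8%), GAD with tBHQ (54.9%) and BRO with QUE (25.1%). Of all 440 pairs of compounds over the 8 genes, 93 differed. Those were 17 of 55 for ACAT2 and for INSIG1, 14 for DHCR7, 12 for EBP, 11 for SQLE and for SC5D, 8 for IDI1 and 3 for HMGCS1. Since the share over all tested probe sets is missing for the other pairs, these counts cannot be set against it. They are no result about the 8 genes. As a description over 11 compounds, each gene's log2 fold changes had a Pearson r with the median of the other 7 of 0.80 for HMGCS1, 0.78 for IDI1 and for DHCR7, 0.50 for SQLE and 0.16 for SC5D.

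Other cholesterol synthesis genes also fell in GAD and QUE. Of 12 tested, GAD lowered 5 and raised 0, where 14.1% of all tested probe sets were called lower, with a median of -0.37 beside 0.05 for all probe sets. They were PMVK, the phosphomevalonate kinase (-1.14), LSS, which closes the sterol ring (-1.0), the sterol reductase LBR (-0.76), ERG28 (-0.69) and the methyl sterol oxidase MSMO1 (-0.61). QUE lowered 3 of the 12, namely ACAT1, the mitochondrial thiolase (-0.72), FDPS, the farnesyl diphosphate synthase (-0.65), and LSS (-0.61), where 5.93% of all tested probe sets were called lower, with a median of -0.21. ACAT1 counts here only because it was on the list, since the first step of the pathway is that of the cytosolic ACAT2. HSD17B7, a sterol ketoreductase with a closely related pseudogene, was the only one of the 12 called in MMS (0.64) and in ENU (0.81), and PMVK the only one in BRO (-0.67).

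Among 14 regulators and sterol transport genes, the SREBP genes themselves were not called in GAD: SREBF2 had -0.36 (limma, adjusted p = 0.00668, under 1.5-fold), SREBF1 -0.25 and SCAP -0.19. GAD lowered 4 of the 14, the lipoprotein receptor VLDLR (-1.32), the sterol carrier STARD4 (-0.65), TMEM97 (-0.63) and INSIG2 (-0.60), where 14.1% of all tested probe sets were called lower. Calls either way took up 13% of all tested probe sets in QUE, 9.84% in tBHQ, 10.2% in MMS, 6.82% in BRO, 10.3% in ENU and 2.04% in NCS. QUE lowered SREBF1 (-0.73) and raised INSIG2 (0.64). In QUE, SREBF2 stood at -0.35 and SCAP at 0.09. tBHQ raised NPC1, which exports cholesterol from lysosomes (1.35), and the lipoprotein receptor LRP8 (1.25), and lowered TMEM97 (-0.64). MMS raised TMEM97 (0.78) and lowered VLDLR (-0.96), BRO raised LRP8 (0.78) and lowered VLDLR (-0.68), ENU lowered SREBF1 (-0.66) and VLDLR (-0.61), and NCS lowered LRP8 (-0.64).

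Another list was built around fatty acid synthesis, which SREBP1 drives. It also held genes of other lipid steps, such as PNPLA3 and GPAM, and a gene of the cholesterol list. Of its 14 tested genes, GAD lowered 4 and raised 0, against 14.1% of all tested probe sets called lower. They were SCD, the stearoyl-CoA desaturase (-1.62), ACSS2, which makes acetyl-CoA from acetate (-0.95), PNPLA3 (-0.74) and ACACA, the acetyl-CoA carboxylase (-0.74). ENU lowered SCD (-0.95) and ACACA (-0.74) and raised the desaturase FADS1 (0.65). QUE lowered the elongase ELOVL6 (-0.80) and raised GPAM (0.64). MMS raised FADS1 (0.94), tBHQ raised ME1, the malic enzyme (1.29), and FADS1 (0.62), and BRO raised ME1 (0.87) and lowered ACSS2 (-0.63).

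A further list held targets of the oxysterol receptor LXR, LXR genes themselves and genes of sterol efflux. Of its 7 tested genes, GAD raised LPCAT3 (1.08) and lowered MYLIP (-0.69) and NR1H3, which encodes an LXR (-0.66), where 26.8% of all tested probe sets were called. MMS lowered MYLIP (-0.65), the cholesterol exporter ABCA1 (-0.64) and NR1H3 (-0.60), where 10.2% were called. ABCA1 was raised in tBHQ (1.00) and lowered in ENU (-0.67), and LPCAT3 was raised in BRO (0.61) and QUE (0.60). Among 11488 genes outside the 8, MSMO1 had the highest Pearson r with the members' median log2 fold change over the 11 compounds (0.94). PER1 (0.89), RP2 (0.89), MAP3K6 (0.89) and ECSIT (0.88) followed. These r are the top of a search over 11 points, some of which share controls. Whether r this high arise by search alone was not tested. A high r did not mean changes of like size. MSMO1 had -0.61 in GAD and -0.34 in QUE, and RP2 -0.09 and -0.14. ECSIT was negative in every compound (highest -0.05).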

How the data were processed

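RNA of HT1080 cells was hybridised to Affymetrix HT HG-U133+ PM arrays, and 101 arrays in 17 groups were used. The deposited values are log2 probe set signals. Partek and GCRMA are named in the submitters' processing notes, with no versions. The arrays form 6 sets with like quantiles, and the quantiles of different sets do not match, as if each set had been normalized alone. No renormalization was applied. The ETP_DMSO arrays labelled 2 and 2-2 were averaged: their difference had an SD of 0.169, against 0.261 for the next closest pair.

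Array controls left aside, 54613 probe sets remained, of which the annotation gives 40914 a single gene. Those with a single gene and a mean of 4 or more in at least 1 group were tested (21612). Each compound was compared with its control in limma 3.58.1 (R 4.3.3), with Benjamini-Hochberg adjustment over all tested probe sets. The threshold for a call was an adjusted p under 0.05 together with a 1.5-fold change. Differences between compounds came from 1 limma fit of all groups, adjusted over all tested probe sets within each of 55 pairs. The fits were tested on simulated data. Figures were drawn with matplotlib 3.10.9. The 8 genes and the other lists were chosen with earlier results of these data known. Named besides the 8 were the 3 called genes of a list with the largest changes, SREBF1, SREBF2, SCAP, INSIG2 and CDKN1A. Also named were the 5 genes with the highest Pearson r with the members' median. ERG28 and ACACA fall outside these rules and were named after their values were seen.

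Same-numbered samples of a compound and its control deviated together (every pair's correlation over 0.1) in all but MMS (lowest -0.27) and ETP (lowest 0.044). The replicate number was therefore taken as pairing samples in the other 9. The main fits leave this pairing out, so their SE and p-values are unpaired, and the block was run as an alternative. In MMC 3 of 5 and in QUE 3 of 6 samples were most like their own number. Alternatives were other filters, probe set rules, scalings and fits, a replicate block and leaving out each replicate. The number of arrays and the signal over background limit the precision. The lower 5% of values ended at 1.72 in the BRO set and 2.47 in the ETP set.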

Additional observations from a re-analysis of the deposited data

Results flagged for a closer look

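Over the 8 leading probe sets and 17 groups, 136 sets of 5 or 6 values were searched for a sample whose gap to its nearest neighbour took up an outlying share of the set's range, and 18 sets (13.2%) held one. Chance alone marks about 1 in 20 such sets, and genes of the same library are not independent. QUE replicate 3 was far below its group for HMGCS1 (5.13) and IDI1 (8.0), and QUE replicate 2 for SC5D (8.54). GAD replicate 1 was far above its group for HMGCS1 (7.47), IDI1 (9.69) and SC5D (8.43). CUR replicate 6 was far above for HMGCS1 (7.50) and IDI1 (9.41). ETP replicate 2 was far below for EBP (7.17) and DHCR7 (6.05), ETP replicate 3 for SQLE (8.37) and tBHQ replicate 3 for IDI1 (9.22). ENU replicate 1 was far above for DHCR7 (6.65). Among controls, CUR_DMSO replicate 2 was far below for ACAT2 (7.49) and DHCR7 (6.37), QUE_DMSO replicate 3 for DHCR7 (6.52) and INSIG1 (9.41), and ETP_DMSO replicate 3 for INSIG1 (9.40).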

How the results depend on the processing

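No log2 fold change of the 8 leading probe sets that was called changed sign under any alternative run, and filters on low values, an equal median of arrays within a set and a variance trend with robust estimation changed no call of theirs. The alternatives moved counts in the compounds with few calls. Counting 1 leading probe set a gene gave 0 in NCS, ENU, BRO and ETP, 5 in GAD, 1 in MMS and 3 in QUE, and averaging each gene's probe sets gave 0 in NCS, ENU, BRO, MMS and ETP and 5 in GAD. Quantile normalization over all arrays gave 0 in NCS and 2 in ENU and in BRO. With no fold minimum the counts were 2 in NCS, 6 in ENU, 5 in tBHQ, 7 in BRO, 7 in MMS and 1 in CUR. The share of all tested probe sets was not worked out under these alternatives, so their counts cannot be set against it. With the replicate block the count was 3 in NCS and 1 in tBHQ. Besides INSIG1 in NCS and HMGCS1 in QUE, the block changed no call of a leading probe set. MMS and ETP missed the rule for pairing, and the block gave 3 and 1 calls there. In MMS 0 of 6 and in ETP 4 of 6 samples were most like their own number, so pairing in ETP is not settled. In 1 fit of all groups, INSIG1 in NCS (adjusted p = 0.04009) and HMGCS1 in QUE (0.04074) were called. Leaving out each replicate gave 0 to 0 calls in MMC and H2O2, 0 to 5 in NCS, 0 to 2 in ENU, 9 to 12 in GAD, 0 to 3 in tBHQ, 1 to 3 in BRO, 3 to 4 in MMS, 0 to 1 in CUR, 0 to 2 in ETP and 5 to 7 in QUE. The 5 in NCS came without replicate 1, and the call in NCS was lost without replicates 3, 4, 5 or 6 or DMSO_pooled replicates 1, 2 or 4. The call in ENU was lost without ENU replicate 6 or DMSO_pooled replicate 4, and that in ETP without any of ETP replicates 1, 4, 5 and 6 or ETP_DMSO replicates 2, 4, 5 and 6. The count was 2 in ENU without ENU replicate 2 or 3 or DMSO_pooled replicate 1 or 3, in NCS without DMSO_pooled replicate 3, and in BRO without BRO replicate 1, 2 or 5 or BRO_DMSO replicate 5 or 6. The 3 in tBHQ came without DMSO_pooled replicate 3 (1 without tBHQ replicate 1, 3 or 4 or DMSO_pooled replicate 1 or 6), the 3 in BRO without BRO_DMSO replicate 1 and the 2 in ETP without ETP replicate 2. The cause of these moves was not tested.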

Other observations

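The 2 probe sets that were not tested stayed near background in every group. The highest group mean was 3.30 for 231320_PM_at of EBP and 2.91 for 215064_PM_at of SC5D, on the log2 scale.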
